A study of Sus scrofa with 32 samples.

Results

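MAT1A, MAT2A, MAT2B and AHCY, the genes that make S-adenosylmethionine and release homocysteine from its used form, were followed through gestation in the liver of fetal Pietrain pigs. All probe sets whose array annotation gives exactly 1 of these 4 symbols were taken, which found 7 of the 23999 probe sets that are not array controls and 4 of the 6765 genes named. MAT1A (NCBI Gene 100156922, chromosome 14) and MAT2A (100312974, chromosome 3) have 1 probe set each, MAT2B (100217381, chromosome 16) has 3 and AHCY (497050, chromosome 17) has 2. Of the 7, 6 passed a filter on low values that kept 15327 probe sets. The seventh, of MAT2B, lay at or near the lowest value of the table in most arrays and reached 4.54 in its highest, and is not tested below.

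The arrays, 1 per sample and 32 in all, cover 6 groups of fetuses whose dams received a methyl-enriched diet or a control diet during gestation, called methyl and control livers here. The methyl groups held 5 fetuses at 35 days post conception (dpc), 6 at 63 dpc and 5 at 91 dpc, and the control groups held 5, 6 and 5 at the same ages. Levels are the deposited log2 values, so a difference of 1 is a factor of 2, and levels of different probe sets were not set against each other. The series describes the samples as offspring of 5 to 6 gilts per stage, and no label ties an array to a dam, a litter or a fetal sex, so each p-value treats the arrays as independent.

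Methionine adenosyltransferase joins methionine to adenosine from ATP and yields S-adenosylmethionine (SAM), the methyl donor of most cellular methylation. MAT1A encodes the catalytic subunit typical of the mature liver, MAT2A the catalytic subunit found in most tissues, and MAT2B a regulatory subunit that binds the MAT2A product. Each methyl transfer leaves S-adenosylhomocysteine, which inhibits methyltransferases and which AHCY splits into adenosine and homocysteine. In rodent liver, Mat2a is the form known from the fetus and from dividing hepatocytes, and Mat1a that of the differentiated hepatocyte.

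The arrays carried a liver signal at every age. Of 19 listed hepatocyte markers 15 were measured, and their mean log2 level per array ran from 13.43 to 13.98 in livers of 35 dpc, from 14.15 to 14.50 in those of 63 dpc and from 14.57 to 14.70 in those of 91 dpc. Blood-forming cells occupy the fetal liver as well: 11 of 20 listed erythroid markers averaged 11.41, 10.88 and 9.18 at 35, 63 and 91 dpc, and 18 of 24 cell cycle genes averaged 9.83, 9.16 and 7.63. Of these, 8 erythroid genes fell and 1 rose in the first interval and 9 fell and 1 rose in the second. At 91 dpc the erythroid gene HBE1 averaged 3.62 and ALAS2, the first enzyme of heme synthesis in red cells, averaged 11.79. These 2 genes were picked after their values were seen, and levels of different probe sets cannot be compared. All 6 measured neutrophil markers of 10 listed rose in the first interval and fell in the second. Over all probe sets tested, 32.5% were higher and 28% lower in the first interval, and 29.5% and 29% in the second. The marker counts take 1 probe set per gene, for which the shares of all genes are given with the methyltransferases below. The arrays split into 18 with a high and 14 with a low gap between 2 bacterial spike-in controls, a division of unstated origin that is equally frequent in both diets at each age. Of the 6 member probe sets, 3 differed between high-gap and low-gap arrays (both of MAT2B and the dimmer of AHCY), as did 24.1% of all probe sets.

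The most direct question the samples allow is how these genes moved as gestation advanced. MAT2A rose in both intervals and ended 2.27-fold higher at 91 than at 35 dpc, AHCY fell in both intervals and ended 2.25-fold lower by its brighter probe set, MAT1A fell in the later interval, and MAT2B rose in the first. In whole liver, fewer cells of a type and less RNA per cell cannot be told apart. Across the 6 probe sets, 4 passed the test at 63 against 35 dpc, 4 at 91 against 63 dpc and 5 at 91 against 35 dpc. Over all probe sets tested, 60.5%, 58.5% and 79.9% passed in the same comparisons, so the share among the members was near that of the array as a whole. Each test is limma's moderated test averaged over the diets, with Benjamini-Hochberg adjustment over the 15327 probe sets and a call at an adjusted p under 0.05.

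**Figure D1:**
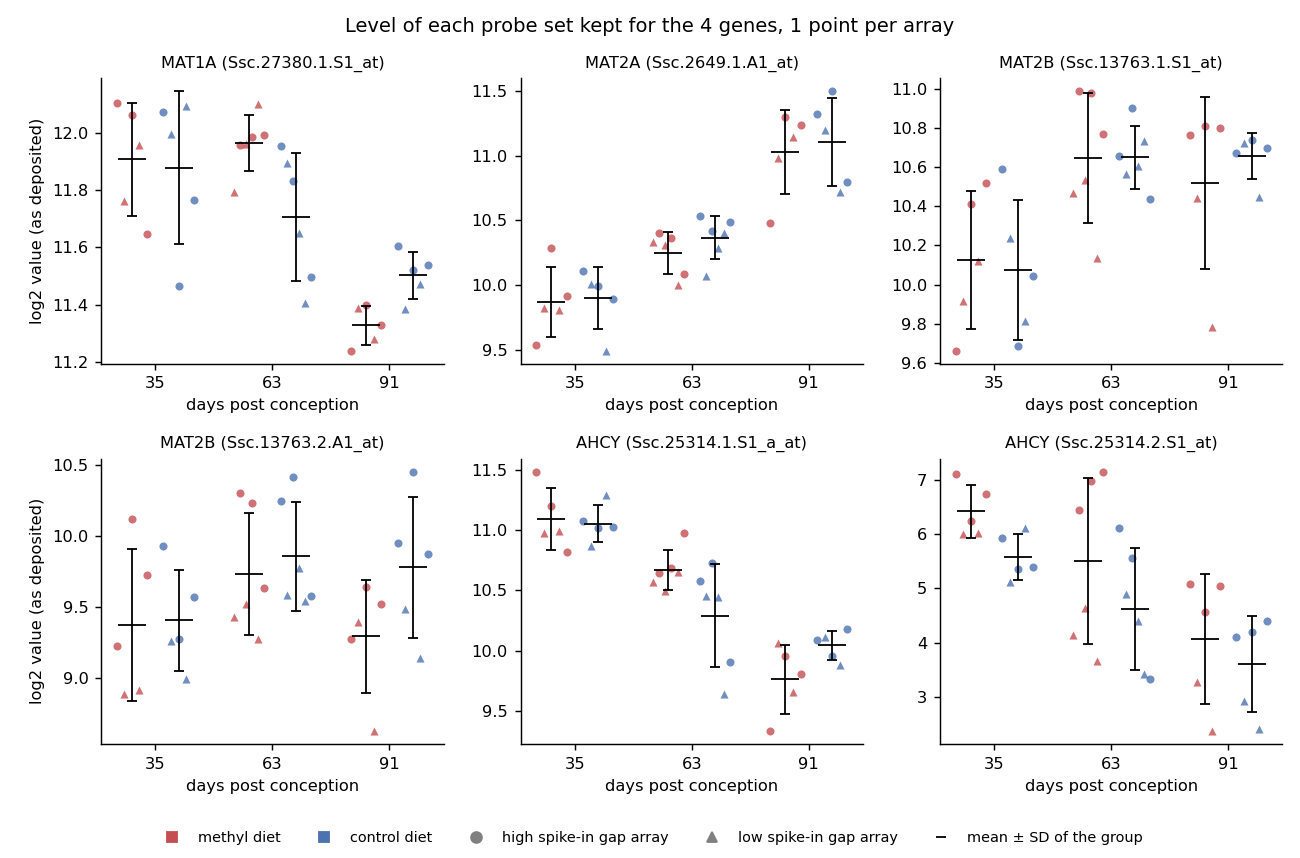
Log2 value of the 6 tested probe sets in each array (points), with methyl arrays to the left of control arrays at 35, 63 and 91 days post conception. Circles are high-gap and triangles low-gap arrays, and the black marks give the group mean ± SD (n = 5, 6 and 5 per diet). MAT2A climbs with age, both AHCY probe sets descend, and MAT1A is lowest at 91 dpc. For MAT2B and AHCY the brighter probe set comes first.

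MAT1A was lower at 91 dpc than at either earlier age. Its probe set had a lowest, median and highest value of 11.46, 11.98 and 12.11 at 35 dpc, of 11.41, 11.92 and 12.10 at 63 dpc, and of 11.24, 11.39 and 11.60 at 91 dpc. All 10 arrays of 91 dpc lay below the mean of 63 dpc, although the ranges overlap. The later interval gave a log2 difference of -0.42 ± 0.08 (SE, limma adjusted p = 2.31e-05), a level 1.34-fold lower at 91 than at 63 dpc. For the first interval the difference was -0.06 with a 95% interval of -0.21 to 0.10 (adjusted p = 0.520). Among the 12 arrays of 63 dpc, 6 lay above and 6 below the mean of 35 dpc. The level of the hepatocyte markers was higher at 91 dpc, at 14.64 ± 0.05 (SD, n = 10), than at 63 dpc, at 14.38 ± 0.10 (SD, n = 12), but its members went both ways. Of the 15 measured, 7 rose, 5 fell as MAT1A did and 3 did not pass, with a median difference of 0.06. Over all probe sets tested, rather than 1 per gene as for the markers, 29.5% were higher and 29% lower in this interval. The shares of all genes by 1 probe set each are given with the methyltransferases below.

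MAT2A rose in both intervals, opposite to the fall of MAT1A in the later interval. Its lowest, median and highest values in livers of 35 dpc were 9.49, 9.90 and 10.28, those of 63 dpc were 10.003, 10.35 and 10.53, and those of 91 dpc were 10.48, 11.17 and 11.50. Every array of 91 dpc was above every array of 35 dpc, and neighbouring ages overlap at their edges. All 12 arrays of 63 dpc exceeded the mean of 35 dpc and all 10 of 91 dpc exceeded the mean of 63 dpc. The first interval added 0.42 ± 0.11 (SE, limma adjusted p = 0.00124) and the second 0.76 ± 0.11 (adjusted p = 6.27e-07), which together make 1.18 ± 0.11 between 35 and 91 dpc (adjusted p = 6.96e-11).

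MAT2B, the regulatory partner, rose between 35 and 63 dpc. Its brighter probe set ran from 9.66 to 10.59 with a median of 10.08 at 35 dpc, from 10.13 to 10.99 with a median of 10.63 at 63 dpc, and from 9.79 to 10.81 with a median of 10.71 at 91 dpc. All 12 arrays of 63 dpc lay above the mean of 35 dpc, and only the single array at 9.79, of the methyl diet, fell below that mean at 91 dpc. The difference of 63 against 35 dpc was 0.55 ± 0.13 (SE, limma adjusted p = 0.000569), and that of 91 against 63 dpc was -0.06 with a 95% interval of -0.32 to 0.20 (adjusted p = 0.707).

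The dimmer MAT2B probe set had medians of 9.26, 9.61 and 9.50 at 35, 63 and 91 dpc, with a lowest value of 8.62 and a highest of 10.45 over all arrays. Its rise to 63 dpc was 0.41 ± 0.18 (SE, limma adjusted p = 0.0498), and the call is lost when any of 20 single arrays is left out (adjusted p up to 0.104). Its difference of 91 against 63 dpc was -0.26 (adjusted p = 0.216), which passed the test with the spike-in division as a block (-0.32, adjusted p = 0.0268). The 2 MAT2B probe sets correlated at r = 0.72 over the 32 arrays, which share their groups and the spike-in division.

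AHCY, the enzyme that clears S-adenosylhomocysteine, fell in both intervals. Its brighter probe set had a lowest, median and highest value of 10.82, 11.02 and 11.48 at 35 dpc, of 9.64, 10.57 and 10.98 at 63 dpc, and of 9.34, 9.95 and 10.18 at 91 dpc. All 12 arrays of 63 dpc were under the mean of 35 dpc, all 10 of 91 dpc were under the mean of 63 dpc, and the ranges of 91 and 35 dpc do not overlap. The differences were -0.59 ± 0.11 in the first interval (SE, limma adjusted p = 3.49e-05) and -0.58 ± 0.11 in the second (adjusted p = 4.97e-05). Between 35 and 91 dpc the difference was -1.17 ± 0.12 (adjusted p = 1.45e-10). In the 14 low-gap arrays alone, the second interval gave -0.45 and missed the threshold (adjusted p = 0.0677).

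The dimmer AHCY probe set moved in the same direction with far more scatter. Its lowest, median and highest values in livers of 35 dpc were 5.12, 6.01 and 7.11, those of 63 dpc were 3.34, 4.77 and 7.15, and those of 91 dpc were 2.38, 4.15 and 5.09, where 8 of 10 arrays cleared the filter's level. Every array of 91 dpc lay below every array of 35 dpc. The differences were -0.94 ± 0.42 in the first interval (SE, limma adjusted p = 0.0537), -1.22 ± 0.42 in the second (adjusted p = 0.0137) and -2.16 ± 0.44 over both (adjusted p = 5.30e-05). This probe set read 1.32 ± 0.26 higher in high-gap than in low-gap arrays (SE, adjusted p = 0.000348), and with the division as a block the first interval passed too (-0.81, adjusted p = 0.0243).

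**Figure D2:**
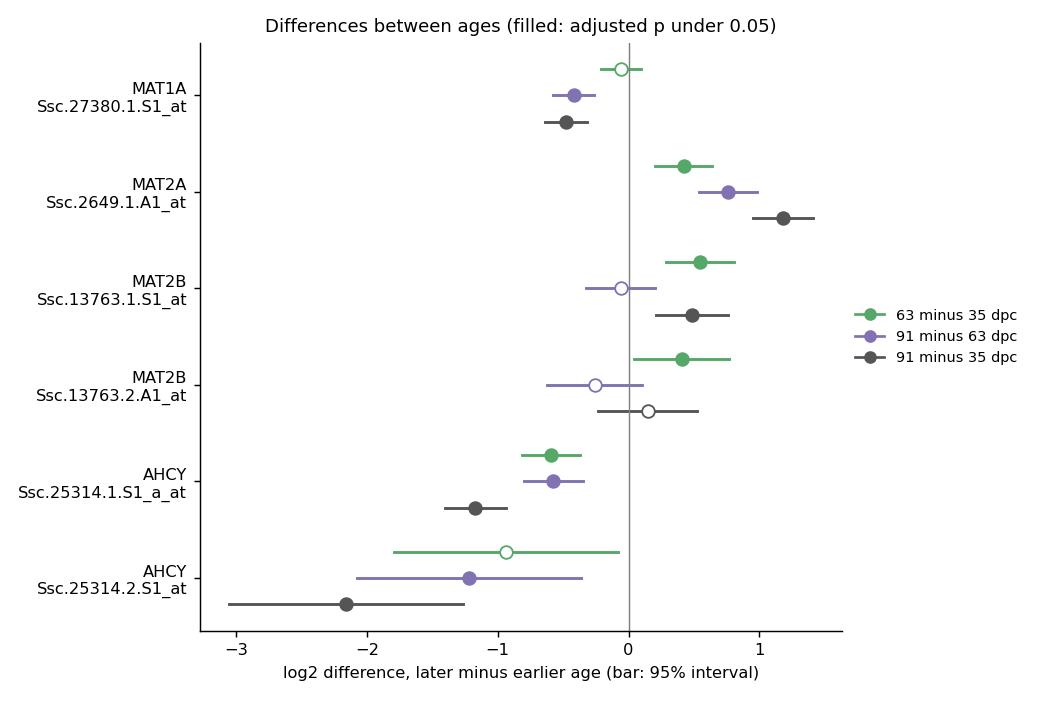
Log2 difference between ages for each tested probe set, later minus earlier age, averaged over diets, with bars for the 95% interval and filled points for an adjusted p under 0.05. MAT2A lies right of 0 and AHCY left of it in each comparison, while MAT1A and the brighter MAT2B probe set each have 1 interval near 0.

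Non-overlap of the 91 and 35 dpc arrays was found for 3 of the 6 probe sets, MAT2A and the pair for AHCY, where 40% of all probe sets tested had it. None of the 6 was free of overlap between 63 and 35 dpc or between 91 and 63 dpc, where 8.6% and 13% of all probe sets were. By size, 37.5% of all probe sets had a larger absolute difference between 35 and 91 dpc than MAT2A and 37.8% had a larger one than the brighter AHCY probe set. The scale of the arrays bears on such values: quantile normalization moved the median difference of all probe sets at 91 against 35 dpc to -0.15, against 0.00 as deposited. Relative to that median, MAT1A stood at -0.31, MAT2A at 1.34, MAT2B at 0.64 and 0.27, and AHCY at -1.03 and -2.28 after quantile normalization, so no member changed direction in that comparison. The brighter MAT2B probe set did so at 91 against 63 dpc, with -0.03 relative to the median as deposited and 0.04 after quantile normalization.

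Whether the second interval differed from the first was tested directly. None of the 6 probe sets passed with limma, against 13% of all probe sets, although 3 had an unadjusted p under 0.05, as did 26.1% of all probe sets. MAT1A gave -0.36 ± 0.13 (SE, adjusted p = 0.0608), and MAT2B gave -0.61 ± 0.22 (adjusted p = 0.0646) and -0.67 ± 0.30 (adjusted p = 0.157). For MAT2A the difference between intervals was 0.34 with a 95% interval of -0.04 to 0.71, and for the brighter AHCY probe set 0.02 with an interval of -0.37 to 0.40. With the spike-in division as a block, both MAT2B probe sets passed (adjusted p = 0.0212 and 0.0103).

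Erythroid and hepatocyte markers changed over the same ages as the members. At 91 dpc the erythroid mean ranged from 8.597 to 9.81, below every array of 63 dpc, where it ranged from 10.62 to 11.22. With the erythroid level added to the fit, the MAT2A difference of 91 against 63 dpc was -0.09 (limma adjusted p = 0.865) and 2 of the 6 probe sets passed. With the hepatocyte level added instead, none of the 6 passed at 63 against 35 dpc or at 91 against 35 dpc. The hepatocyte means of the 3 ages do not overlap, so age and the hepatocyte level cannot be told apart. The same holds for the erythroid level at 91 dpc against the earlier ages. At 35 dpc the erythroid mean ranged from 11.02 to 11.74, which overlaps 63 dpc.

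Setting the members against each other within an array removes whatever scales the whole array. The log2 ratio of MAT1A to MAT2A, the liver against the widespread catalytic subunit, had a lowest, median and highest value of 1.47, 1.95 and 2.60 at 35 dpc, of 1.01, 1.51 and 2.10 at 63 dpc, and of 0.03, 0.24 and 0.76 at 91 dpc. No array of 91 dpc reached the lowest of 63 dpc. The mean ratio was 0.35 ± 0.30 at 91 dpc (SD, n = 10) against 1.53 ± 0.33 at 63 dpc (SD, n = 12), a change of -1.18 (two-sided permutation test, adjusted p = 0.00015 over 15 ratio tests). Between 35 and 63 dpc the change was -0.48 (permutation test, adjusted p = 0.0133), which missed the threshold in the high-gap arrays alone (-0.41, adjusted p = 0.143) and in the low-gap arrays alone (-0.60, adjusted p = 0.107).

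The ratio of catalytic to regulatory subunit, MAT2A to MAT2B, changed in the later interval. It averaged 0.48 ± 0.43 at 91 dpc (SD, n = 10) and -0.34 ± 0.23 at 63 dpc (SD, n = 12), a change of 0.82 (permutation test, adjusted p = 0.0002). A methyl array of 91 dpc stood at -0.28, within the range of 63 dpc, and another at 1.36. For 63 against 35 dpc the change was -0.12 (permutation test, adjusted p = 0.514). The ratio of AHCY to MAT1A changed in the first interval instead, with -1.35 ± 0.21 at 63 dpc (SD, n = 12) and -0.82 ± 0.19 at 35 dpc (SD, n = 10), a change of -0.53 (permutation test, adjusted p = 0.00015). In the second interval, where both genes fell, its change was -0.16 (permutation test, adjusted p = 0.198). The p-values behind the 0.00015 are the smallest that 100000 resamples can give, and a ratio's level has no meaning of its own because probe sets differ in brightness.

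**Figure D3:**
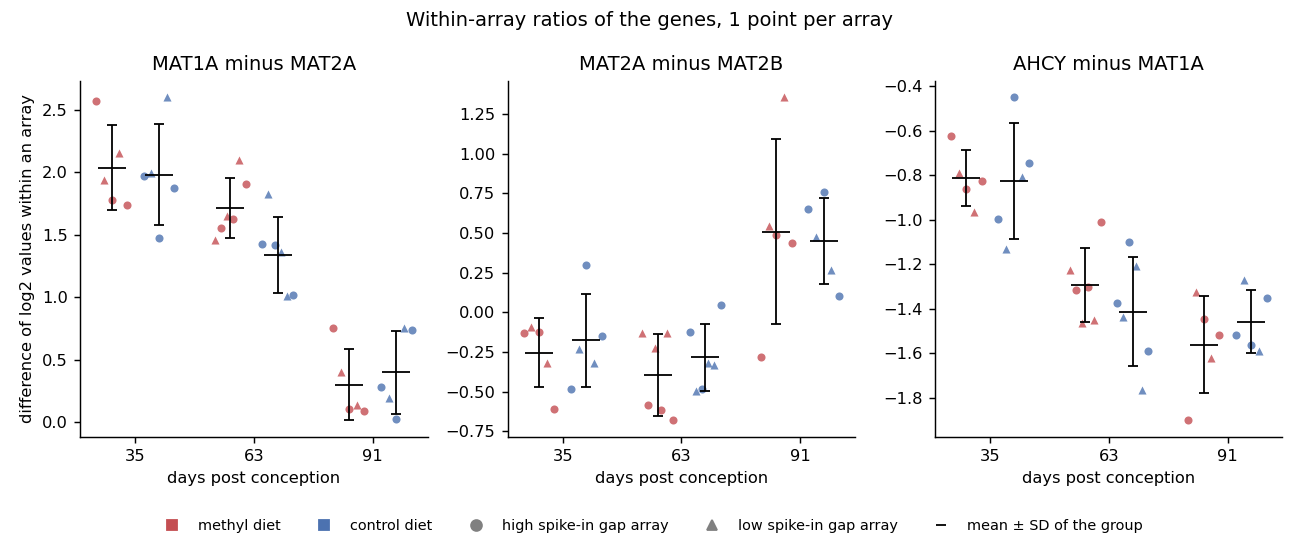
Difference of log2 values between 2 genes within each array (points), methyl left of control at each age, circles for high-gap and triangles for low-gap arrays, black marks for group mean ± SD (n = 5, 6 and 5 per diet). MAT1A minus MAT2A drops to between 0.03 and 0.76 at 91 dpc, MAT2A minus MAT2B is higher at 91 dpc, and AHCY minus MAT1A is lower from 63 dpc on.

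The diet comparison asks whether a maternal diet enriched in methylating micronutrients altered the expression of the genes that turn methionine into the methyl donor. No member passed the test at 35, 63 or 91 dpc, averaged over ages or as an interaction of diet and age. Over all probe sets tested, limma called 0.0391% at 35 dpc, 0% at 63 dpc, 0.0718% at 91 dpc, 0% averaged over ages and 0% for the interaction. An unadjusted p under 0.05 was found for 933, 219 and 1000 probe sets at 35, 63 and 91 dpc, which at 63 dpc is 1.43% and includes MAT1A and the brighter AHCY probe set. No member was free of overlap between the diets at any age, where 0.313%, 0.0848% and 0.744% of all probe sets were at 35, 63 and 91 dpc.

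At 35 dpc the diets lay on top of each other for MAT1A, with 12.11, 11.76, 12.06, 11.96 and 11.65 in methyl livers against 12.07, 11.998, 11.46, 12.09 and 11.77 in control livers. MAT2A had 9.53, 9.82, 10.28, 9.81 and 9.91 in methyl livers against 10.11, 10.01, 9.99, 9.49 and 9.89 in control livers. The brighter AHCY probe set had 11.48, 10.97, 11.20, 10.996 and 10.82 in methyl livers against 11.08, 10.87, 11.01, 11.29 and 11.02 in control livers. Each of the 3 genes overlaps widely, and their differences of 0.03, -0.03 and 0.04 had 95% intervals of -0.20 to 0.26, -0.35 to 0.30 and -0.29 to 0.37. MAT2B differed by 0.05 (95% interval -0.34 to 0.44) and by -0.03 (95% interval -0.57 to 0.51).

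At 63 dpc MAT1A had a lowest, median and highest value of 11.79, 11.97 and 12.10 in methyl livers against 11.41, 11.74 and 11.95 in control livers. The brighter AHCY probe set had 10.50, 10.65 and 10.98 in methyl livers against 9.64, 10.45 and 10.73 in control livers. For both genes 6 of 6 methyl livers exceeded the control mean, and the groups overlap. The differences were 0.26 ± 0.10 for MAT1A and 0.38 ± 0.15 for AHCY (SE), each with an unadjusted p of 0.0163 and a limma adjusted p of 1. Control replicates 5 and 6, at 9.64 and 9.91 for AHCY and 11.41 and 11.50 for MAT1A, were the lowest 2 values of both genes at this age.

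Within the spike-in division these 63 dpc differences were of like size among arrays of the high and of the low gap. They were 0.22 and 0.30 for MAT1A and 0.36 and 0.39 for the brighter AHCY probe set, with an adjusted p of 1 in each. MAT2A and MAT2B gave -0.12 (95% interval -0.41 to 0.18) and, for MAT2B, 0.00 (95% interval -0.36 to 0.35) and -0.12 (95% interval -0.61 to 0.37). The ratio of MAT1A to MAT2A averaged 1.72 ± 0.24 in methyl livers and 1.34 ± 0.30 in control livers of 63 dpc (SD, n = 6 each). Its difference of 0.38 had an exact permutation p of 0.0433 and an adjusted p of 0.130, and it passed only when control replicate 2 was left out (exact permutation test, adjusted p = 0.0130).

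At 91 dpc the sign was the opposite for MAT1A and for the brighter AHCY probe set, whose values follow. MAT1A had 11.24, 11.39, 11.40, 11.28 and 11.33 in methyl livers against 11.60, 11.38, 11.52, 11.47 and 11.54 in control livers, and AHCY had 9.34, 10.06, 9.95, 9.66 and 9.81 in methyl livers against 10.09, 10.11, 9.95, 9.88 and 10.18 in control livers. All 5 methyl livers lay under the control mean for MAT1A and 4 of 5 did for AHCY, with overlap in both. The differences were -0.18 (95% interval -0.41 to 0.05, limma adjusted p = 0.926) and -0.28 (95% interval -0.61 to 0.05, adjusted p = 0.884). The 3′ to 5′ log2 ratio of the array's own RNA quality controls averaged 2.05 ± 0.47 in methyl and 1.63 ± 0.27 in control livers of 91 dpc (SD, n = 5 each). With this ratio as a covariate the differences were -0.13 for MAT1A (limma adjusted p = 0.854) and -0.21 for AHCY (adjusted p = 0.830).

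MAT2A had 10.48, 10.98, 11.30, 11.14 and 11.24 in methyl livers against 11.32, 11.19, 11.50, 10.72 and 10.80 in control livers of 91 dpc, a difference of -0.08 (95% interval -0.40 to 0.25). MAT2B had 10.77, 10.44, 10.81, 9.79 and 10.80 in methyl livers against 10.67, 10.72, 10.74, 10.45 and 10.69 in control livers by its brighter probe set. Its differences were -0.14 (95% interval -0.52 to 0.25) by that probe set and -0.49 (95% interval -1.02 to 0.05, limma adjusted p = 0.845) by the dimmer, for which 5 of 5 methyl livers lay under the control mean.

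**Figure D4:**
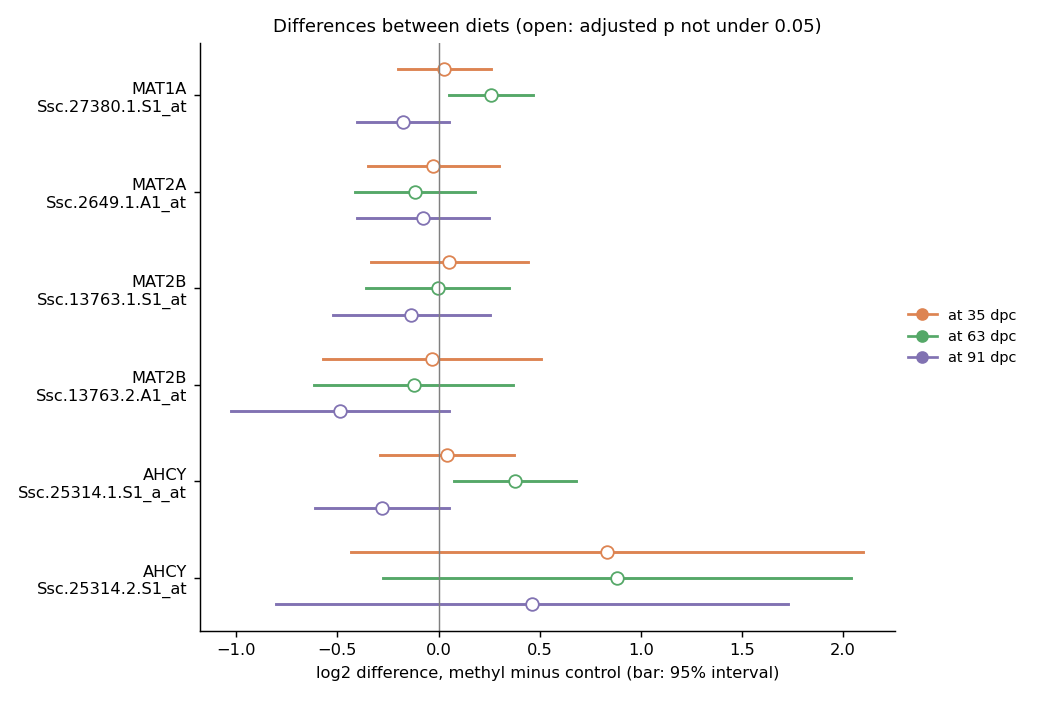
Log2 difference between diets, methyl minus control, for each tested probe set at 35, 63 and 91 dpc, with bars for the 95% interval and open points because none had an adjusted p under 0.05. MAT1A and the brighter AHCY probe set lie right of 0 at 63 dpc and left of it at 91 dpc, and the dimmer AHCY probe set has the widest intervals.

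The change of the diet difference between 63 and 91 dpc was computed after these values were seen. It was -0.44 ± 0.15 for MAT1A (SE, unadjusted p = 0.00728) and -0.66 ± 0.22 for the brighter AHCY probe set (SE, unadjusted p = 0.00558). Both had a limma adjusted p of 0.873, with 0% of all probe sets called. The dimmer AHCY probe set gave -0.42 ± 0.84 (SE, limma unadjusted p = 0.621). Put as change with age, MAT1A differed by -0.64 between 91 and 63 dpc in methyl livers (limma adjusted p = 2.25e-05) and by -0.20 in control livers (adjusted p = 0.127). The brighter AHCY probe set differed by -0.91 in methyl livers (adjusted p = 3.10e-05) and by -0.25 in control livers (adjusted p = 0.202). Its dimmer probe set differed by -1.43 in methyl livers (adjusted p = 0.0509) and by -1.01 in control livers (adjusted p = 0.170). MAT2A rose in both, by 0.78 in methyl livers (adjusted p = 0.000145) and by 0.74 in control livers (adjusted p = 0.000239). In the same interval 43.7% of all probe sets passed in methyl livers and 45% in control livers.

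The dimmer AHCY probe set was higher on average in methyl livers at each age. Its levels at 35 dpc were 7.11, 6.00, 6.24, 6.02 and 6.73 in methyl livers against 5.93, 5.12, 5.36, 6.12 and 5.39 in control livers, which overlap through 1 control array. The differences were 0.83, 0.88 and 0.46 at 35, 63 and 91 dpc, and the average of 0.73 ± 0.35 (SE) had an unadjusted p of 0.0457 and a limma adjusted p of 0.999. At 63 dpc its methyl arrays parted by the spike-in division, with 6.44, 6.97 and 7.15 in high-gap arrays and 4.14, 4.65 and 3.67 in low-gap arrays. The brighter AHCY probe set averaged a diet difference of 0.05 (95% interval -0.14 to 0.23), so the 2 probe sets of this gene do not give the same value.

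Over the 32 arrays MAT1A and AHCY moved together, at r = 0.83 between their brighter probe sets and at r = 0.65 after group means and the spike-in division were removed. MAT1A and MAT2A stood at r = -0.68, which was -0.10 after that removal, and MAT2A and MAT2B at 0.51 and 0.25. These are descriptions over arrays that share ages, diets and processing. By the same measure over 5593 other genes, AHCY was most like TM9SF1 (r = 0.95), BAG6 (0.94), RAC1 (0.94), NOP9 (0.94) and GNG5 (0.94), and MAT2A most like C1H6orf203 (0.93), RTN4 (0.92), RBFOX2 (0.92), SGK1 (0.91) and SATB1 (0.91). MAT1A was most like SLC9A3R1 (0.84), XPNPEP1 (0.84), PTBP1 (0.83), AHCY (0.83) and TSPAN14 (0.82), so AHCY itself was among its 5 nearest genes. MAT2B was most like PAPSS1 (0.91), NEK9 (0.90), YTHDF2 (0.89), PDPK1 (0.86) and LOC102166602 (0.86).

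With group means and the spike-in division removed, the nearest genes were QDPR (0.89), GALK1 (0.87), RAC1 (0.86), PARK7 (0.86) and DYNLRB1 (0.85) for AHCY. For MAT1A they were EFTUD2 (0.75), TSPAN14 (0.73), ALKBH5 (0.73), WIPI2 (0.72) and GSE1 (0.71). For MAT2A they were WDFY3 (0.70), PANK1 (0.68), CYP2D25 (0.68), PGRMC1 (0.65) and PSAT1 (0.62). For MAT2B the first 3 were again PAPSS1 (0.85), NEK9 (0.84) and YTHDF2 (0.81), followed by ADH5 (0.80) and MOSPD1 (0.79).

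The genes around the members were taken from fixed lists, by the brightest probe set of each gene. Of 36 listed methyltransferases that spend SAM, 18 were measured, and 10 fell and 6 rose at 63 against 35 dpc, while 13 fell and 2 rose at 91 against 63 dpc. The list's median differences were -0.36 and -0.58, beside -0.09 and -0.14 for all 5594 genes, of which 38.5% fell and 30.4% rose in the first interval and 39.8% fell and 22.6% rose in the second. FBL, the ribosomal RNA methyltransferase fibrillarin, fell by 0.82 and then by 0.87, and NSUN2, a transfer RNA methyltransferase, fell by 0.56 and then by 0.74. The protein methyltransferases PRMT7, at -0.67 and -0.74, and PCMT1, at -0.39 and -0.84, fell in both intervals as well. INMT, an amine methyltransferase, rose by 1.45 in the first interval (limma adjusted p = 3.65e-07) and was at 0.28 in the second (adjusted p = 0.232).

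Polyamine synthesis and methionine salvage draw on SAM after its decarboxylation, and 11 of 16 listed genes were measured. Of these, 6 fell and 2 rose in the first interval, and 8 fell and 1 rose in the second, with medians of -0.29 and -0.33. The shares and medians of all genes are those given for the methyltransferases. ODC1, the ornithine decarboxylase that starts the pathway, changed by -0.66 and then by -1.31 (limma adjusted p = 5.18e-12). SMOX, spermine oxidase, changed by -1.35 and by -1.88, and SRM, spermidine synthase, fell by 1.35 in the first interval. SAT1, which acetylates polyamines for their breakdown, rose by 1.22 and then by 0.73.

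Homocysteine released by AHCY is either remethylated or passed to cysteine. Of 16 listed remethylation and folate genes 9 were measured, with 3 higher and 1 lower in the first interval and 1 higher and 3 lower in the second. Of all 5594 genes, 30.4% rose and 38.5% fell in the first interval, and 22.6% rose and 39.8% fell in the second. BHMT, which remethylates homocysteine with betaine, rose by 1.59 between 35 and 63 dpc (limma adjusted p = 3.72e-07), and CHDH, which makes betaine aldehyde from choline, rose by 1.38 and then by 0.78. The folate enzyme MTHFD2 fell by 0.97 and by 1.24. MTR, the methionine synthase, averaged 2.89, 2.90 and 2.81 at the 3 ages, near the filter's level of 2.74 to 2.93, so its differences say little.

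Of 10 listed transsulfuration and cysteine genes 6 were measured, with 2 higher and 3 lower in the first interval and 0 higher and 3 lower in the second. The shares of all genes are those given for the remethylation list. CTH, the cystathionine lyase that yields cysteine, rose by 0.38 between 35 and 63 dpc, and GCLC, the catalytic subunit of glutamate-cysteine ligase, rose by 1.102. GCLM, of the same ligase, fell by 1.34 in the second interval, and GSS, glutathione synthetase, fell by 0.51 in the first. SUOX, sulfite oxidase, fell by 1.19 and by 1.11, and CDO1, cysteine dioxygenase, fell by 1.46 in the second interval. For the adenosine that AHCY also releases, 2 of 8 listed genes were measured: SLC29A1, a nucleoside transporter, fell by 0.83 and by 1.28, and ADK, adenosine kinase, fell by 0.57 in the second interval and stood at 0.45 in the first (limma adjusted p = 0.0568). SLC3A2, the heavy chain of amino acid exchangers, was the only measured gene of 10 listed for SAM and methionine transport and changed by -1.27 and by -1.001, passing in both intervals.

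Of 15 listed genes reported as regulators of MAT1A or MAT2A, mostly in human and rodent cells, 7 were measured. In the first interval 2 were higher and 4 lower, and in the second 1 was higher and 3 lower. The shares of all genes are again those given for the remethylation list. CEBPA, a liver transcription factor, fell by 0.79 and by 0.88, and CEBPB fell by 0.31 in the first interval and rose by 0.35 in the second. ELAVL1, an RNA-binding protein, was at -0.16 in the first interval (limma adjusted p = 0.160) and fell by 0.52 in the second, and HNRNPD, another, rose by 0.28 in the first. HNF4A rose by 0.30 in the first interval, and KDM4A, a histone demethylase, fell by 0.51 and by 0.79. No gene of these lists passed a diet comparison, the smallest adjusted p being 0.427 at 35 dpc, 1 at 63 dpc and 0.457 at 91 dpc.

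**Figure D5:**
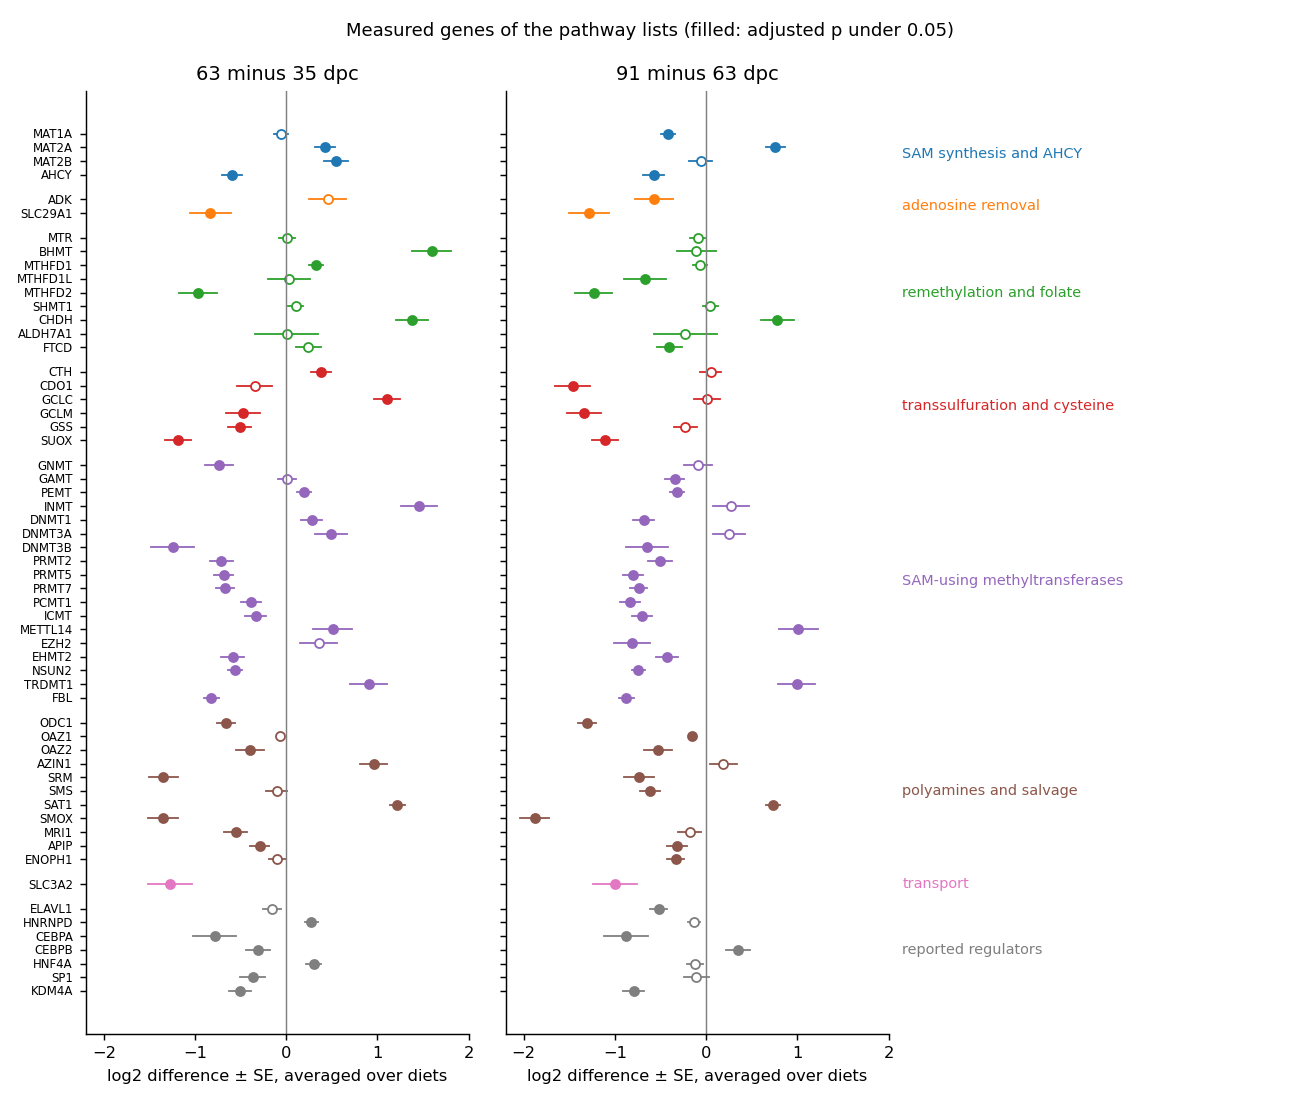
Log2 difference ± SE of each measured gene of the pathway lists, 63 minus 35 dpc at left and 91 minus 63 dpc at right, averaged over diets, with filled points for an adjusted p under 0.05. Most methyltransferases and polyamine genes lie left of 0 in both panels, while MAT2A, CHDH, SAT1, METTL14 and TRDMT1 have filled points right of it in both.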

How the data were processed

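Total RNA from fetal liver was hybridised to 32 Affymetrix porcine arrays after biotin labelling, per the labels' protocols. The deposited values are log2 values, 1 per probe set and array, from 2.20 to 16.6. Software named is GCOS 1.1.1, per the submitters' processing notes, while the summarisation and normalization are not given in the sources used here. Values were used as deposited. Of 24123 probe sets, 124 controls were set aside, and 15327 were kept for exceeding, in 5 or more arrays, the 40th percentile of the array, which lay between 2.74 and 2.93. Array data have no counting depth, so the number of arrays limits the precision.

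limma 3.58.1 in R 4.3.3 (with the data.table package, version 1.17.8) fitted 6 group means with an intensity trend, on 26 residual degrees of freedom, and adjusted p-values by Benjamini-Hochberg over all probe sets kept. Within-array ratios of the brightest probe sets were tested in Python 3.11.15 with scipy 1.17.1, exactly for diets and with 100000 resamples for ages, adjusted over 15 tests. Arrays were divided at a gap of 1.2 between the bioC and bioB spike-in controls. The fits were tested on simulated data. The members and gene lists were chosen with earlier results of these data known. Named genes are every member probe set, up to 4 called genes per pathway list and interval by smallest p, and the 5 genes most correlated with each member. HBE1, ALAS2, MTR, METTL14 and TRDMT1, and the values of list genes in an interval where they were not among those 4, were added after their values were seen. AHCYL1 and AHCYL2 were not analysed here.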

Additional observations from a re-analysis of the deposited data

Results flagged for a closer look

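MAT2B, by its brighter probe set, had 1 control liver of 91 dpc, replicate 4, at 10.45, apart from the other 4, of which the nearest stood at 10.67. Its gap to that array, divided by the range of the group, was 0.760 and above Dixon's 95% critical value for 5 samples. It was the only array set apart in this way among 36 groups of arrays tested, and chance sets apart about 1 in 20. The array is of the low spike-in gap, and MAT2B read 0.27 ± 0.10 higher in high-gap than in low-gap arrays by this probe set (SE, limma adjusted p = 0.0403). Replicate 2, the group's other array of the low spike-in gap, stood at 10.72. Whether the spike-in gap accounts for the value of replicate 4 was not tested.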

How the results depend on the processing

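No paired analysis was possible because the replicate numbers only name arrays. Leaving out any array kept the number of member probe sets called at 3 to 5 for 63 against 35 dpc, 4 for 91 against 63 dpc, 5 for 91 against 35 dpc and 0 in each diet comparison, and gave 0 to 2 for the second against the first interval. Against 4, 4 and 5 calls in the age comparisons as reported, fits with the erythroid covariate called 2, 2 and 3, whether or not these were called before. The last 3 were both AHCY probe sets and the dimmer of MAT2B. That MAT2B probe set passed at -2.11 (limma adjusted p = 0.00387), opposite in sign to its 0.15 as reported, which did not pass. The hepatocyte covariate left 0 for 63 against 35 dpc and 0 for 91 against 35 dpc. The cause was not tested. For the second against the first interval, where 0 passed, quantile normalization called 1 (MAT1A), array weights 1 (MAT1A), the spike-in block 2, the erythroid covariate 2 and the 3′ to 5′ ratio covariate 2 (the MAT2B probe sets in each of these 3). MAT1A passed there without control 35 dpc replicate 1 or 4, methyl 35 dpc replicate 1, or control 63 dpc replicate 5 or 6. MAT2B (brighter probe set) passed there without control 35 dpc replicate 1, methyl 35 dpc replicate 5 or methyl 63 dpc replicate 5.

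Among single member probe sets, 647 of the values under alternatives that keep all arrays or split them by the spike-in gap kept direction and side of the threshold, 16 passed anew, 21 no longer passed and 36 changed sign. Sign changes in the age differences were as follows. High-gap arrays alone gave MAT1A 0.016 for 63 against 35 dpc. The erythroid covariate gave MAT2B (dimmer probe set) -0.13 for 63 against 35 dpc, MAT2A -0.091 for 91 against 63 dpc, and MAT2B -0.48 and -2.11 for 91 against 35 dpc. The hepatocyte covariate gave the dimmer AHCY probe set 0.34 for 63 against 35 dpc and MAT2B -0.21 and -0.014 for 91 against 35 dpc. Leaving out 1 array gave MAT2B (brighter probe set) -0.11 to 0.032 for 91 against 63 dpc. For the second against the first interval, the brighter AHCY probe set had -0.0035 with quantile normalization, -0.15 with weights, -0.0022 with the block, -0.18 in high-gap arrays, -0.37 with the erythroid and -0.12 with the hepatocyte covariate, and -0.12 to 0.10 with 1 array left out. The dimmer one had 0.18 in low-gap arrays and -0.65 to 0.048 with 1 array left out, and MAT2A -0.25 with the erythroid covariate.

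Sign changes in the diet differences were all of values that did not pass. At 35 dpc MAT2A had 0.029 and MAT2B (dimmer) 0.024 with quantile normalization, MAT2B (dimmer) 0.099 in high-gap arrays and 0.029 with the 3′ to 5′ ratio, and MAT2A 0.025 with the hepatocyte covariate. Low-gap arrays gave MAT1A -0.18, MAT2A 0.064, MAT2B (brighter) -0.0062 and AHCY (brighter) -0.093, and the erythroid covariate MAT2B (brighter) -0.0030 and AHCY (brighter) -0.00014. At 63 dpc MAT2B (brighter) had 0.25 in high-gap arrays and 0.018 with the 3′ to 5′ ratio, and AHCY (dimmer) -0.084 in low-gap arrays. At 91 dpc MAT2B (brighter) had 0.089 in high-gap arrays, MAT2A 0.11 in low-gap arrays and AHCY (dimmer) -0.19 with the 3′ to 5′ ratio. Averaged over ages, AHCY (brighter) had -0.018 with weights, MAT2B (brighter) 0.14 in high-gap and MAT2A 0.045 in low-gap arrays. With 1 array left out, the ranges at 35 dpc were -0.055 to 0.11 for AHCY (brighter), -0.075 to 0.094 for MAT1A, -0.13 to 0.058 for MAT2A, and -0.046 to 0.18 and -0.22 to 0.10 for MAT2B. For MAT2B (brighter) they were -0.072 to 0.098 at 63 dpc, -0.21 to 0.048 at 91 dpc and -0.062 to 0.032 averaged, and for MAT2A -0.17 to 0.060 at 91 dpc.

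Of the ratio results, MAT1A to MAT2A at 63 against 35 dpc missed the threshold in high-gap (-0.41) and low-gap (-0.60) arrays alone, which hold fewer arrays. Diet ratios changed sign for AHCY to MAT1A at 35 dpc (-0.0033 with quantile normalization, -0.039 in high-gap arrays, -0.063 to 0.11 with 1 array left out) and at 91 dpc (0.27 with the mean of all probe sets). They did so for MAT2A to MAT2B at 35 dpc (0.070 in low-gap arrays, -0.15 to 0.041 with 1 left out), 63 dpc (0.22 in low-gap arrays) and 91 dpc (-0.29 in high-gap arrays, -0.15 to 0.26 with 1 left out), and for MAT1A to MAT2A at 35 dpc (-0.25 in low-gap arrays, -0.079 to 0.21 with 1 left out). MAT1A to MAT2A at 63 dpc ran from 0.30 to 0.47 with 1 array left out.

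Over all probe sets, the calls for 63 against 35 dpc went to 15 with the hepatocyte covariate, 4798 in low-gap arrays and 3934 with 1 probe set per gene, against 9278. For 91 against 63 dpc they went to 1063 with the erythroid and 5135 with the hepatocyte covariate, 5260 in low-gap arrays and 3545 with 1 probe set per gene, against 8963. For 91 against 35 dpc the counts were 4924, 1142 and 4690 with those covariates and 1 probe set per gene, against 12250. For the second against the first interval they ran from 219 in low-gap arrays to 2454 with array weights, against 1994, with lower counts also in high-gap arrays (833), with the erythroid (434) or hepatocyte (890) covariate and with 1 probe set per gene (936). Under alternatives that leave out no single array, the diet calls ran from 0 to 18 at 35 dpc, against 6, from 0 to 41 at 91 dpc, against 11, and the interaction from 0 to 6, against 0. With 1 array left out they ran from 4 to 13, from 1 to 43 and from 0 to 7.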

Other observations

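MAT2A rose and MAT1A fell between 35 and 91 dpc in these pig livers, by log2 differences of 1.18 and -0.48. Over the same ages 8 of the 15 measured hepatocyte markers rose, 4 fell and 3 did not pass (median difference 0.24). Of the 18 measured cell cycle genes 1 rose, 16 fell and 1 did not pass. Over all probe sets tested, rather than 1 per gene as for these lists, 40.8% were higher and 39.1% lower in this comparison. The direction of MAT2A and MAT1A is the opposite of the exchange of Mat2a for Mat1a described in maturing rodent liver. All pig ages here are fetal, and stages were not matched between the species. Under alternatives that leave out no single array, MAT2A ran from 0.07 to 1.23 and MAT1A from -0.85 to -0.42 at 91 against 35 dpc. With the hepatocyte level added to the fit neither passed, and neither passed with the erythroid level added instead. Age and these levels cannot be told apart in this comparison. Each gene rests on 1 probe set whose sequence was not checked here, and the cause was not tested.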
